A study of Mus musculus with 8 samples.

Results

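Homeostatic microglia genes, a set commonly used to recognise resting microglia, were examined in single-nucleus RNA sequencing of mouse brain. They are Cx3cr1, P2ry12, P2ry13, Gpr34, Csf1r, Siglech, Selplg, Tmem119 and Sall1, 9 of the 54232 genes in the count matrices, found by symbol. Their levels were read in 868 microglia, 1.91% of 45565 nuclei, chosen with 15 other genes of the microglial lineage such as Inpp5d, Dock8 and Ptprc. The background was read in 33849 nuclei of 11 other marker-named classes, whose names (excitatory neuron, astrocyte and so on) mean "like" that type, since they rest on markers alone.

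The mice were 10-week-old Swiss Webster males, and the tissue was a small cube of forebrain next to the lesion. The 4 groups were control, BCAS surgery, traumatic brain injury (TBI), and BCAS+TBI, with 2 biological replicate libraries in each. The labels give BCAS as an abbreviation, which the study's title ties to cerebral hypoperfusion, and they state neither the interval after surgery, nor what control surgery was, nor whether a library pools animals.

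Microglia are the resident macrophages of the brain, and in the undisturbed state they carry a set of surface sensors. Cx3cr1 is the receptor for the neuronal chemokine fractalkine, P2ry12 and P2ry13 sense ADP, and Csf1r binds CSF1 and IL-34, on which microglial survival depends. These genes are known to fall when microglia become activated, as after injury, while genes of lysosomes and lipid handling rise.

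Upstream sequences from RefSeq (GRCm38.p6) were listed for 5 of the 9 genes. Shown here, because they lie outside annotated exons but for 6 bases of the Siglech window, are the 250 bases before the start of a P2Y receptor, a lectin and a transcription factor that were all far higher in microglia than elsewhere. Capitals mark GAGGAA, the core of sites for PU.1, the master regulator of the myeloid lineage, which was searched on both strands (TTCCTC on the other). The windows are chr3:59210883-59211132 (minus strand), chr7:55767934-55768183 (plus strand) and chr8:89044163-89044412 (minus strand). Sall1 has further listed windows, chr8:89043513-89043762 and chr8:89042863-89043112, which also lie outside annotated exons and are not shown.
P2ry13: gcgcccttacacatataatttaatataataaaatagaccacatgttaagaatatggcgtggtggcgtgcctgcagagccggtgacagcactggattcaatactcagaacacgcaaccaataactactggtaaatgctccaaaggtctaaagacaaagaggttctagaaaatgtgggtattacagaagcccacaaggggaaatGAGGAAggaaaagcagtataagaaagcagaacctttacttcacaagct
Siglech: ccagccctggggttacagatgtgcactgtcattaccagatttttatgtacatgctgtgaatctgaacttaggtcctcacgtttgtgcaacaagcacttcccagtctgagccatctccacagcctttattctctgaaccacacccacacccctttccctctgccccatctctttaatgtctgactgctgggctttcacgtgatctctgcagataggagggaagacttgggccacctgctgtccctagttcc
Sall1: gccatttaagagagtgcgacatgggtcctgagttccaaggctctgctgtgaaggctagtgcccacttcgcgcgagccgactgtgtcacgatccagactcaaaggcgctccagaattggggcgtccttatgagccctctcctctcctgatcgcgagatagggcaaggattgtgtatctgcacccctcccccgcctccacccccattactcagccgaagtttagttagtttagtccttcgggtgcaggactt
The P2ry13 window holds the motif once, beginning 48 bases before the start. It was found in 1 of the 7 windows listed for the 5 genes, and in 23.3% of all 32851 windows of this length.

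Libraries held 6191 to 7882 barcodes and 28118725 to 56135192 unique molecular identifiers (UMIs, each marking 1 captured RNA molecule). Levels are given as CPM, UMIs of a gene divided by all UMIs of the nuclei named and scaled to 1e+06. The libraries fell into 2 sets by total UMIs, with 1 library of every group in each. Set 1 is control 1, BCAS 1, TBI 1 and BCAS+TBI 2, the shallower libraries, and set 2 is control 2, BCAS 2, TBI 2 and BCAS+TBI 1. Gated microglia numbered 112 and 106 in control, 91 and 139 in BCAS, 126 and 72 in TBI, and 118 and 104 in BCAS+TBI. Of the 868, 635 lay in the microglia cluster, which was computed without the 9 genes, and 233 lay elsewhere. In the gated nuclei the 5 oligodendrocyte markers summed to 1145 CPM in TBI 2 and up to 3975 CPM in control 1, and the 15 gate genes themselves to 6325 CPM in BCAS 1 and up to 10609 CPM in TBI 2. In the gated nuclei within the microglia cluster the gate genes ranged from 11139 to 13091 CPM and the oligodendrocyte markers from 343 to 883 CPM. Astrocyte markers still differed there, from 362 CPM in TBI 1 to 2223 CPM in BCAS+TBI 2. Group comparisons are therefore given for both sets of nuclei, and the part of other cells' RNA in them was not tested. The set within the cluster was not planned and was defined after the data were seen. Of the macrophage markers, Pf4 and Lyve1 were at 0 in gated microglia and the summed list was at most 30.1 CPM in a library, since nuclei with 2 or more such UMIs were left out. Of the lymphocyte markers, Cd3e, Cd3g, Cd2 and Skap1 were at 0.

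The genes lie at separate places in the genome except for 2 neighbouring pairs, in GRCm38 by GENCODE M21. P2ry12 (chr3:59216272-59262871) and P2ry13 (chr3:59207892-59210882) lie on the minus strand, wholly inside Med12l on the plus strand. Tmem119 (chr5:113793729-113800516) and Selplg (chr5:113818536-113832644) are neighbours on the minus strand and overlap no coding gene. Gpr34 (chrX:13632089-13640858, plus strand) lies wholly inside Cask on the minus strand. Cx3cr1 (chr9:119901616-120069879, minus strand) has a long annotated form that covers Gorasp1, Ttc21a, Csrnp1 and Xirp1 and reaches into Wdr48. Csf1r, on the plus strand, shares 873 bases with Hmgxb3 on the minus strand. Siglech (chr7:55768178-55778925, plus strand) and Sall1 (chr8:89027235-89044162, minus strand) overlap no coding gene.

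The first question was how far the 9 genes separate microglia from the rest of this tissue. All 9 were higher in gated microglia than in the other named nuclei of the same libraries, by edgeR's quasi-likelihood test with the library as a block. That background is 1 sum per library, and 18386 of its 33849 nuclei were excitatory neurons. The folds are therefore not folds over each class. The 10782 unnamed nuclei, with Csf1r at 18.9 CPM against 2.86 CPM in the other named nuclei, were left out. Siglech, a lectin that is used as a marker because few other brain cells carry it, differed by 360-fold (log2 fold change 8.49, SE 0.16, edgeR adjusted p = 2.0e-38). P2ry12 differed least, by 21.6-fold (log2 fold change 4.43, SE 0.14, edgeR adjusted p = 3.4e-30). Csf1r and Selplg, which encodes the selectin ligand PSGL-1, differed by 217-fold and 215-fold. Tmem119, a membrane protein of microglia, differed by 119-fold, P2ry13 by 106-fold and Gpr34, a receptor for lysophosphatidylserine, by 79.6-fold. Cx3cr1 differed by 58.7-fold and Sall1, a transcription factor that maintains microglial identity, by 35.9-fold. In this comparison 20.5% of the 17036 genes tested were called higher in microglia.

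**Figure D1:**
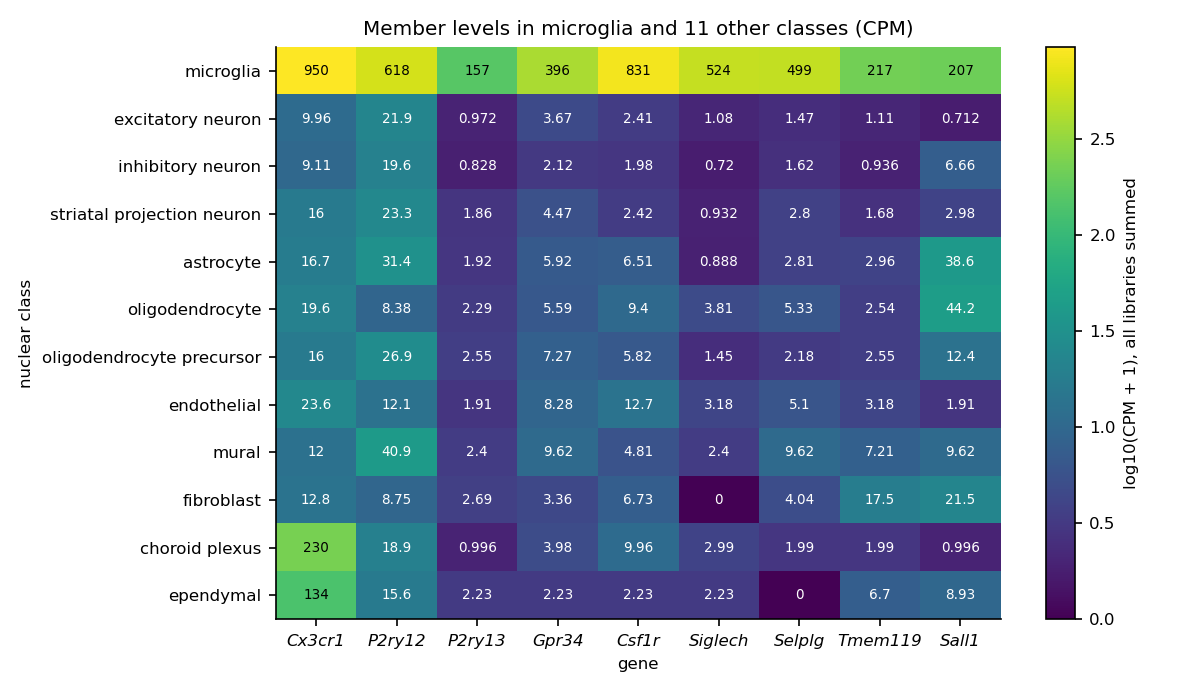
Heat map of the 9 genes (columns) in microglia and 11 other classes (rows), with libraries summed; cells print CPM and colour is log10(CPM + 1). Every gene was highest in microglia, and the next highest cells were Cx3cr1 in choroid plexus (230 CPM) and ependymal nuclei (134 CPM).

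Single genes were found in a part of the gated nuclei. Over all libraries Cx3cr1 had a UMI in 79.0% of the 868 microglia (exact 95% binomial interval 76.2% to 81.7%) and Csf1r in 75.1% (72.1% to 78.0%). P2ry12 was found in 63.0%, Selplg in 59.3%, Siglech in 58.8% and Gpr34 in 49.2%. Sall1 and Tmem119 were found in 32.7% and 32.4%, and P2ry13 in 26.4%. A median of 5 of the 9 genes had a UMI in a gated nucleus, 86.8% of nuclei had 3 or more, and 22 nuclei had none. Gated microglia had a median of 1344 UMIs and the other named nuclei 4512. In excitatory neurons Csf1r, Siglech, Selplg, Tmem119, P2ry13 and Sall1 each had a UMI in 1.43% or less of nuclei. Gpr34 had a UMI in 2.42% of them, Cx3cr1 in 6.65% and P2ry12 in 13.6%. The intervals cover counting error only.

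When nuclei were thinned to 800 UMIs each, which left out 131 of the 868 microglia, Cx3cr1 was found in 52.1% (BCAS 1) to 75.6% (control 1) of microglia per library and in 0.845% to 2.06% of the other nuclei. P2ry12 was found in 26.7% to 53.7% and in 0.848% to 3.20%. Siglech was found in 31.5% to 47.6% of microglia and in 0.0228% to 0.168% of the other nuclei. Each of these ranges in microglia lay above its range in the other nuclei.

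Outside microglia the 9 genes did not share 1 pattern. Siglech was at or under 3.81 CPM in every other class and had 0 UMIs in 849 fibroblasts, which allows a share of up to 0.353% of those nuclei with a UMI. Selplg had 0 UMIs in the 243 ependymal nuclei and was at most 9.62 CPM elsewhere. P2ry13 was at most 2.69 CPM. Gpr34 reached 9.62 CPM in mural cells and Csf1r 12.7 CPM in endothelial cells. These 5 genes were low in all 11 other classes.

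Sall1 was present in macroglia as well. It was at 44.2 CPM in oligodendrocytes and 38.6 CPM in astrocytes, against 207 CPM in microglia and 0.712 CPM in excitatory neurons. Over libraries it ranged from 29.4 to 74.8 CPM in oligodendrocytes and from 24.7 to 53.8 CPM in astrocytes, and from 0.316 to 1.83 CPM in excitatory neurons. The ranges in the first 2 classes did not overlap that in excitatory neurons. Fibroblasts had 21.5 CPM of Sall1 and 17.5 CPM of Tmem119, a gene also known from bone-forming cells. The Tmem119 level in fibroblasts rested on 26 UMIs.

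Cx3cr1 was prominent in the 2 classes that line the ventricles. Choroid plexus nuclei held 242 CPM ± 126 (SD, n = 8 libraries; range 120.1 to 450.3) and ependymal nuclei 139 CPM ± 45.0 (range 76.8 to 208). In microglia it was 979 CPM ± 163, and in the other 9 classes the mean over libraries was at most 27.4 CPM, in endothelial cells. Cx3cr1 had a UMI in 47.5% of 341 choroid plexus nuclei (interval 42.1% to 53.0%) at a median of 2883 UMIs, and in 6.65% of excitatory neurons at a median of 6352 UMIs. No other member exceeded 18.9 CPM in choroid plexus, and Csf1r, which was 0.875 times as abundant in UMIs as Cx3cr1 in microglia, had 10 UMIs there against 231 of Cx3cr1.

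Ttc21a, a gene of motile cilia that the long form of Cx3cr1 covers on the opposite strand, was found in the same classes. It was at 138 CPM ± 39.3 in choroid plexus and 456 CPM ± 187 in ependymal nuclei (SD, n = 8), and at 3.35 CPM or less in the 10 other classes, with 2 UMIs in all gated microglia. Its mean was the higher in ependymal nuclei, whereas that of Cx3cr1 was the higher in choroid plexus, where the library ranges of Cx3cr1 overlapped. The other overlapped genes, Gorasp1, Csrnp1, Xirp1 and Wdr48, showed no such rise in both classes. Whether counting used strand and introns is not given in the sources used here. The counts do not show which Cx3cr1 reads came from the stretches shared with other genes. The part of Ttc21a in the ventricular signal was not tested.

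**Figure D2:**
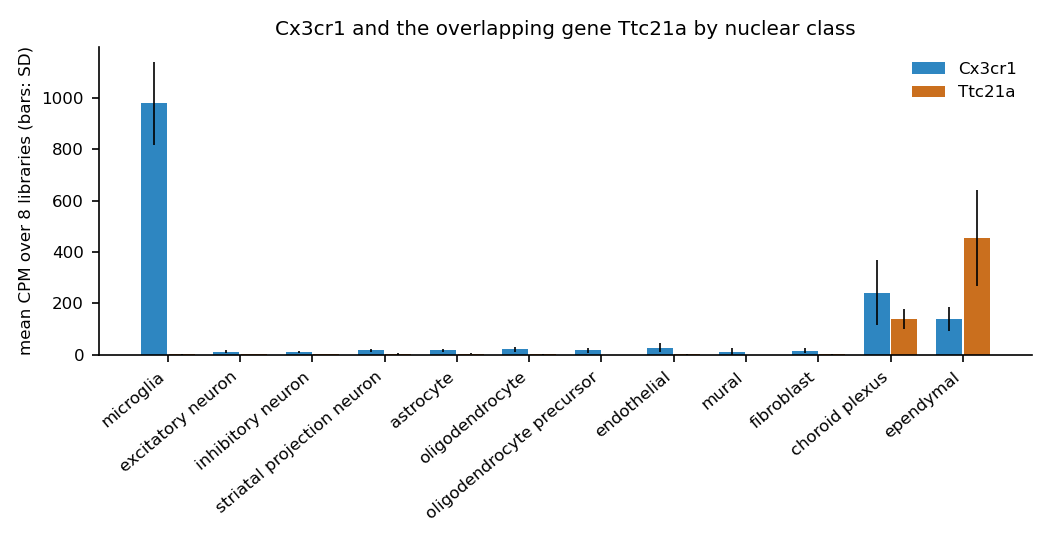
Mean CPM of Cx3cr1 and Ttc21a in 12 nuclear classes (bars; error bars SD over 8 libraries, cut at 0). Cx3cr1 was highest in microglia (979 CPM), and both genes were present in choroid plexus and ependymal nuclei.

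P2ry12 was present at a low level throughout, from 8.38 to 40.9 CPM over the 11 other classes. It was at 21.9 CPM in excitatory neurons, 31.4 CPM in astrocytes, 26.9 CPM in oligodendrocyte precursors and 8.38 CPM in oligodendrocytes. Excitatory neurons held 9.10 UMIs of P2ry12 for each UMI of Csf1r, and microglia held 0.743. For Cx3cr1 the numbers were 4.13 and 1.14, and for Gpr34 1.52 and 0.477. For P2ry13 they were 0.403 and 0.189, and for Tmem119 0.458 and 0.262. For Selplg they were 0.609 and 0.600, for Sall1 0.295 and 0.249, and for Siglech, which went the other way, 0.446 and 0.631. Of the larger genes around P2ry12, P2ry13 and Gpr34, Med12l was at 209 CPM ± 32.6 and Cask at 205 CPM ± 27.6 in excitatory neurons (SD, n = 8).

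Most UMIs of the 9 genes were not in gated microglia. The gated nuclei held 13.1% of all P2ry12 UMIs, 17.6% of Sall1, 26.1% of Cx3cr1 and 28.6% of Gpr34. They held 33.7% of Tmem119 UMIs, 35.4% of P2ry13, 36.6% of Selplg, 39.6% of Csf1r and 44.1% of Siglech. Unnamed clusters held a further 38.3% (P2ry13) to 49.6% (Selplg). Of these, a cluster of 1886 nuclei with a median of 13775 UMIs, led by oligodendrocyte genes such as Mag and Mog and with a median doublet score of 0.136, held 33.7% of all member UMIs. It held 31 of the gated nuclei.

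Border-associated macrophages, the relatives of microglia in the meninges and around vessels, offered a contrast within the gate. The 40 gated nuclei left out for 2 or more UMIs of macrophage markers such as Mrc1 and F13a1 had Csf1r at 610 CPM (exact Poisson 95% interval 459 to 796), against 831 CPM in microglia. Their Cx3cr1 was at 192 CPM (112 to 308) against 949.9 CPM, and P2ry12 at 226 CPM (138 to 349) against 618 CPM. Tmem119 and Sall1 each had 2 UMIs there, 22.6 CPM (2.74 to 81.7). Siglech was at 102 CPM (46.5 to 193) against 524 CPM. The nuclei came from all 8 libraries and no test was made on so few.

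The second question was whether either surgery changed the 9 genes in microglia. No gene of the 5993 tested passed an adjusted p of 0.05 in edgeR for TBI averaged over BCAS, BCAS averaged over TBI, their interaction, or BCAS+TBI against TBI. That is 0% called in each, and 259, 260, 199 and 257 genes had an unadjusted p under 0.05. DESeq2 called 0, 3, 0 and 0 genes, and edgeR with the library set as a further term 0, 6, 0 and 0, none of them among the 9. All 9 genes passed the filter on low counts. In gated microglia the levels with and without each surgery overlapped for all 9.

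**Figure D3:**
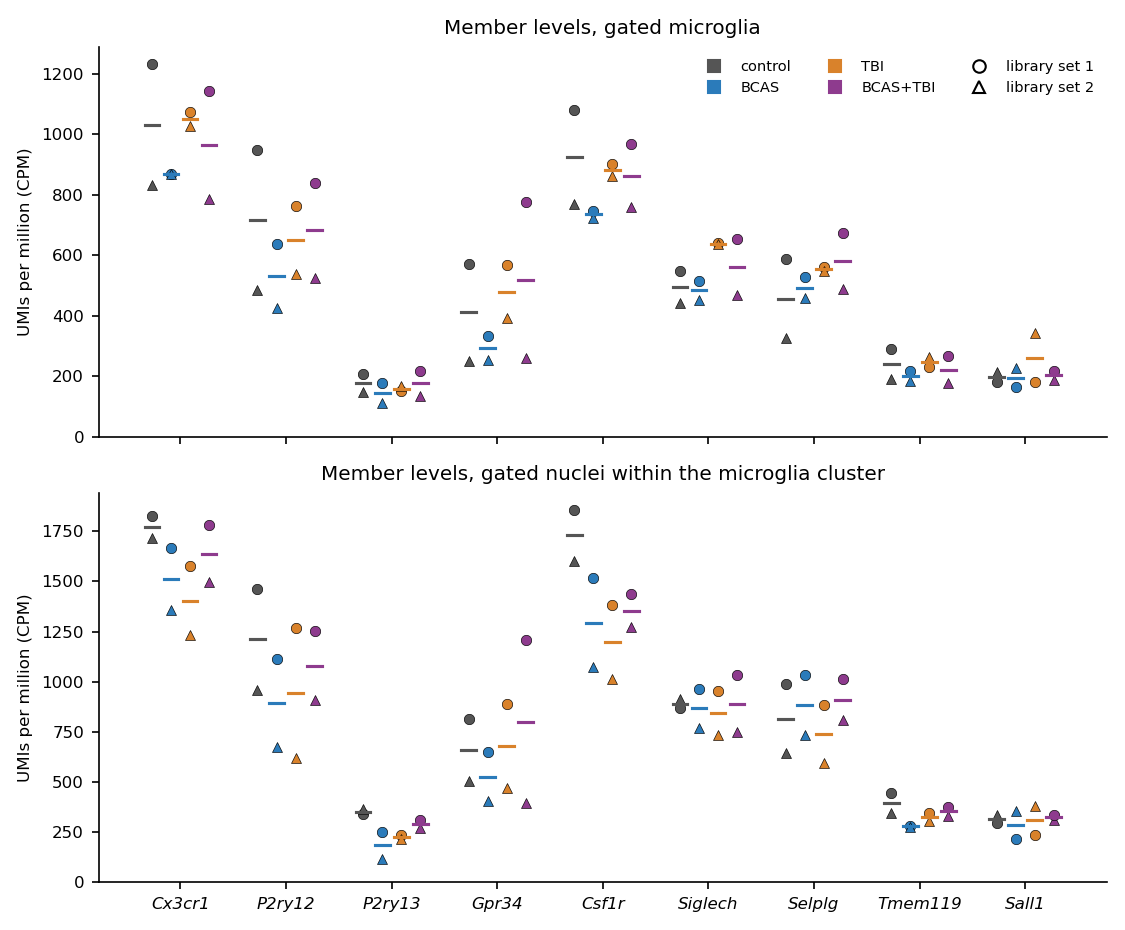
CPM of the 9 genes in each library (points, coloured by group; circles set 1, triangles set 2; bars are group means, n = 2) in gated microglia (top) and in gated nuclei within the microglia cluster (bottom). In the upper panel libraries with and without each surgery overlapped for all 9, although both TBI libraries were above both control libraries for Siglech. In the lower panel both control libraries were above the other 6 for Csf1r and P2ry13. The share of all genes in that order is not given here.

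Among the chemokine and purine receptors, Cx3cr1 in gated microglia was at 1233 and 831 CPM in control, 869.7 and 869 CPM in BCAS, 1075 and 1028 CPM in TBI, and 787 and 1143 CPM in BCAS+TBI. Both TBI libraries were above both BCAS libraries, and the control and BCAS+TBI libraries spanned the values of these 2 groups. Its log2 fold change was 0.07 for TBI averaged over BCAS (95% interval -0.48 to 0.63) and -0.16 for BCAS averaged over TBI (-0.71 to 0.39).

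P2ry12, the receptor by which microglial processes follow ADP to damaged tissue, was at 948 and 485 CPM in control, 638 and 425 CPM in BCAS, 765 and 538 CPM in TBI, and 526 and 839.9 CPM in BCAS+TBI. In each group the library of set 1 was the higher. Its log2 fold change was 0.11 for TBI (-0.54 to 0.76) and -0.16 for BCAS (-0.82 to 0.49).

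P2ry13 was at 207 and 148 CPM in control, 179 and 112 CPM in BCAS, 150.4 and 166 CPM in TBI, and 134 and 218 CPM in BCAS+TBI, all groups overlapping. Gpr34 was at 572 and 251 CPM in control, 332 and 255 CPM in BCAS, 567 and 391 CPM in TBI, and 261 and 776 CPM in BCAS+TBI. BCAS+TBI 2 was the highest of the 8 for Gpr34, and 72.1% of its microglia had a Gpr34 UMI against 38.9% to 54.5% in the other 7 libraries. Gpr34 had the largest fitted difference for TBI among the 9, a log2 fold change of 0.53 (-0.27 to 1.32, adjusted p = 0.997 in edgeR).

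With the library set as a further term this was 0.45 (0.0025 to 0.894, adjusted p = 0.644). On log2(CPM + 10) the Gpr34 difference for TBI was 0.59 within set 1 and 0.33 within set 2. In the gated nuclei within the cluster it was 0.51 and -0.07, so the direction was not the same in both sets there.

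Csf1r was at 1082 and 769 CPM in control, 748 and 723 CPM in BCAS, 903 and 861 CPM in TBI, and 759.96 and 968 CPM in BCAS+TBI. Siglech was at 549 and 441 CPM in control, 517 and 453 CPM in BCAS, 640.4 and 636 CPM in TBI, and 468 and 654 CPM in BCAS+TBI. Both TBI libraries were above both BCAS libraries for both genes. For Siglech they were also above both control libraries, but BCAS+TBI 1 was not. The fitted change for TBI averaged over BCAS was 0.28 (-0.23 to 0.78) for Siglech and 0.07 (-0.46 to 0.59) for Csf1r.

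Selplg ranged from 325 CPM (control 2) to 675 CPM (BCAS+TBI 2), Tmem119 from 177 CPM (BCAS+TBI 1) to 292 CPM (control 1), and Sall1 from 163 CPM (BCAS 1) to 343 CPM (TBI 2). Their fitted changes for TBI averaged over BCAS were 0.25, 0.08 and 0.18. Over the 9 genes the fitted TBI change was above 0 for 9 of 9, with a median of 0.11 against 0.02 over all 5993 genes, and none passed. The count fell to 4 of 9 without control 2 or without BCAS+TBI 2. It stayed 9 of 9 with DESeq2, with the library set as a further term and in nuclei of 1000 or more UMIs. It was 7 of 9 with a looser gate (2 or more gate-gene UMIs) and 6 of 9 with a stricter one (5 or more). It was 5 of 9 with a 3-gene gate, in all nuclei of the microglia cluster and without the filter on low counts. Leaving out nuclei of high UMIs (over 3 times the library median of gated microglia) also gave 5 of 9. In the gated nuclei within the cluster it was 6 of 9, with a median of 0.02 against 0.03 over the 2962 genes tested there. In all gated microglia the summed gate genes were also highest in TBI 1 and TBI 2. They were at 8699 and 10609 CPM, against 6325 to 7639 CPM in the other libraries, and their part in the fitted changes was not tested.

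For BCAS averaged over TBI the fitted change was below 0 for 8 of 9 (median -0.16, against -0.01 over all genes), from -0.19 for Tmem119 to 0.12 for Selplg, and none passed. Without control 1 it was below 0 for 3 of 9 and without BCAS+TBI 1 for 5 of 9, and without control 2 or without BCAS+TBI 2 for 9 of 9. The widest of the intervals for BCAS, that of Gpr34, ran from -0.96 to 0.63 on the log2 scale.

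The interaction asks whether TBI acted differently in mice that also had BCAS surgery. In gated microglia 6 of 9 genes were above 0 and 3 below, from -0.27 (Sall1) to 0.61 (Gpr34), and none passed. The count above 0 was 2 of 9 without control 1 and 3 of 9 without BCAS+TBI 2, and 8 of 9 without control 2 or without BCAS+TBI 1. In the gated nuclei within the cluster all 9 were above 0, from 0.15 (Siglech) to 1.44 (P2ry13), with a median of 0.62 against 0.04 over all genes there. None passed in that setting either, where 0% of 2962 genes were called. The planned gate gave 6 of 9, and over 33 alternatives the count above 0 ran from 2 of 9 to 9 of 9. The setting within the cluster was defined after the data were seen. For P2ry13 the interval was 0.27 to 2.61 (adjusted p = 0.999 in edgeR), and with the library set as a further term the change was 1.51 (SE 0.47, adjusted p = 0.634).

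The levels behind it were as follows. P2ry13 in these 635 nuclei was at 339 and 363 CPM in control, 249.8 and 119 CPM in BCAS, 238 and 216 CPM in TBI, and 273 and 313 CPM in BCAS+TBI, from 198 UMIs in all. Csf1r was at 1856 and 1603 CPM in control, 1516 and 1075 CPM in BCAS, 1385 and 1015 CPM in TBI, and 1273 and 1435 CPM in BCAS+TBI. For both genes each control library was above each of the other 6. The share of all genes in this order is not given here, so the order is a description only. In all gated microglia this order was absent.

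On log2(CPM + 10) the interaction for P2ry13 within the cluster was 0.80 in set 1 and 1.86 in set 2, and for Csf1r 0.34 and 0.90. For Siglech it was -0.03 and 0.27, and for Sall1 0.92 and -0.36. In all gated microglia the values were above 0 for 9 of 9 genes in set 1 and for 2 of 9, P2ry12 and P2ry13, in set 2.

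For BCAS+TBI against TBI, the comparison in the study's title, 5 of 9 genes were above 0 in gated microglia, from -0.26 (Sall1) to 0.19 (P2ry13). Within the cluster 9 of 9 were above 0, from 0.10 (Siglech) to 0.38 (P2ry13). None passed in either. Over 34 alternatives the count above 0 ran from 0 of 9 to 9 of 9. Without BCAS+TBI 2 the count in gated microglia was 0 of 9, from -0.86 to -0.15, and without BCAS+TBI 1 it was 8 of 9, from -0.13 to 0.74.

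**Figure D4:**
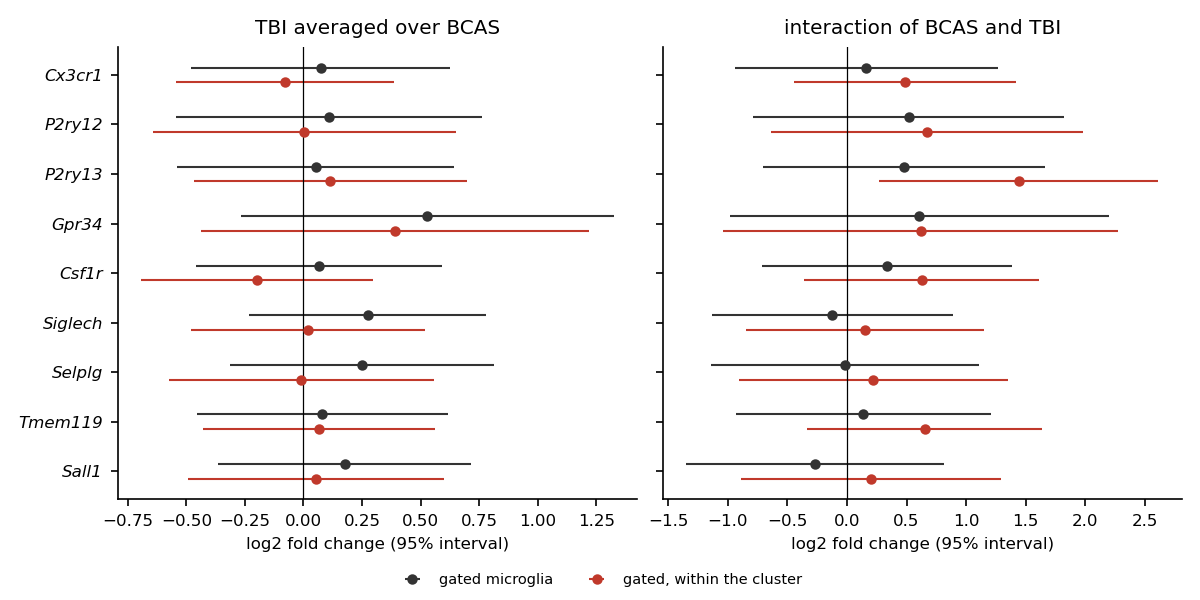
Fitted log2 fold changes (points) with 95% intervals (lines) for TBI averaged over BCAS (left) and for the interaction (right), in gated microglia (black) and gated nuclei within the microglia cluster (red). All intervals cover 0 except that of P2ry13 for the interaction within the cluster, 0.27 to 2.61.

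Other genes of microglial states were read from lists. In a list of 30 further homeostatic genes such as Spi1 and Tgfbr1, 28 were tested and 23 were above 0 for TBI averaged over BCAS (median 0.21). Within the cluster 12 of 26 were (median -0.01). In a list of 23 disease-associated microglial genes, 12 were tested and 12 were above 0 (median 0.66). The largest were Trem2, the lipid-sensing receptor of activated microglia (0.96, SE 0.31), and B2m of MHC class I (0.92, SE 0.34), followed by Cd68 and Cd9 at 0.89 each. Within the cluster 9 of 12 were above 0 (median 0.46, against 0.03 over all genes there). Among all genes 51.9% were above 0 in gated microglia and 53.8% within the cluster. None of either list passed, and Trem2 and Tyrobp are on both lists. The part of the higher gate-gene sums of the TBI libraries in these counts was not tested.

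Some of the 9 differed between the library sets. The sets also differed in mitochondrial UMIs, 1.20% to 2.77% in set 1 and 0.511% to 1.04% in set 2, and in barcodes that failed the filter, 475 to 1394 and 255 to 425 per library. The part of these in the differences was not tested. In microglia P2ry12 was at 638 to 948 CPM in set 1 and 425 to 538 CPM in set 2, with no overlap. Its fitted difference was 1.67-fold (log2 0.74, SE 0.18, adjusted p = 0.0148, edgeR with the groups as further terms). Gpr34 differed by 1.99-fold (log2 0.99, SE 0.21, adjusted p = 0.00647), at 332 to 776 CPM and 251 to 391 CPM. These 2 of 9 passed, against 6.56% of all genes called higher in set 1. Within the microglia cluster P2ry12, Gpr34 and Selplg passed, 3 of 9 against 7.73%. Sall1 was the only one of the 9 with a fitted value lower in set 1, by log2 -0.29 (SE 0.22), which did not pass.

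In the other named nuclei 7 of 9 passed, all but Tmem119 and Sall1, against 31.1% of all genes called higher in set 1. P2ry12 was at 38.8 CPM ± 3.33 in set 1 and 12.7 CPM ± 0.69 in set 2 (SD, n = 4), and Gpr34 at 6.83 ± 0.976 and 2.04 ± 0.32 CPM. Cx3cr1 was at 19.1 ± 2.03 and 8.54 ± 0.761 CPM. After edgeR's scaling these were differences of 2.64-fold, 2.89-fold and 1.95-fold, with adjusted p of 2.8e-05, 0.000127 and 0.000202. In excitatory neurons 8 of 9 passed, all but Sall1, against 31.5%, and P2ry12 was 2.78-fold higher in set 1. In inhibitory neurons Cx3cr1, P2ry12 and Selplg passed of 6 tested, against 26.2%. In astrocytes 3 of the 9 had enough counts to be tested, and P2ry12 alone passed, against 16.1% of all genes. In oligodendrocytes Cx3cr1 and Sall1 were tested and neither passed, against 13.6%. Med12l and Cask, which contain P2ry12 and Gpr34, were lower in set 1 in the other named nuclei, by 0.641-fold and 0.671-fold (adjusted p = 3.6e-05 and 3.4e-05). Whether the sets differ more outside microglia than within them was not tested.

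**Figure D5:**
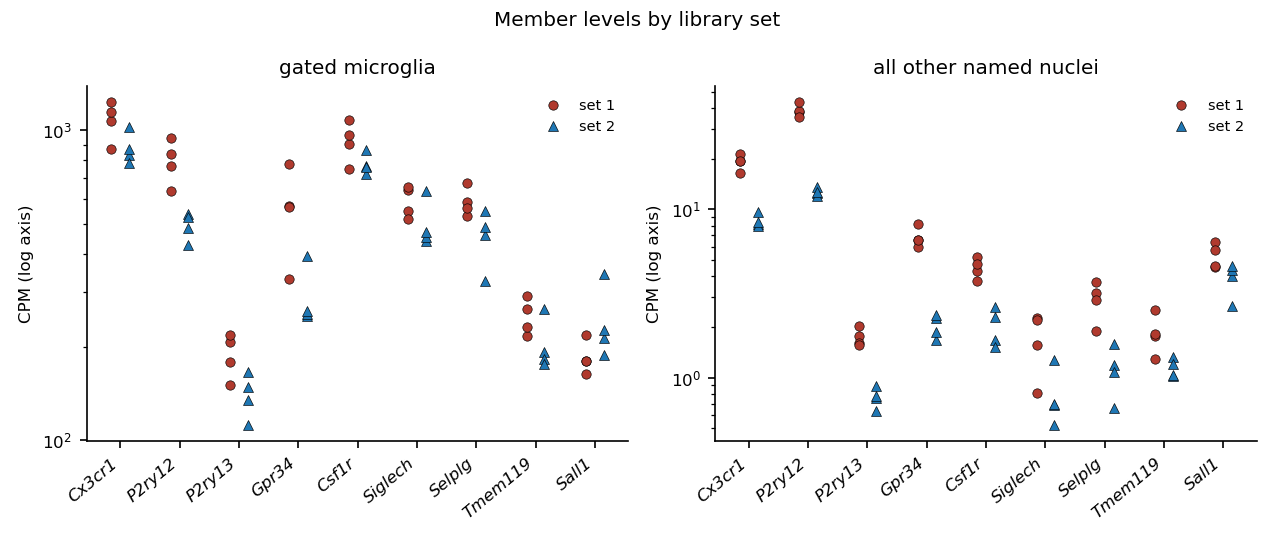
CPM (log axis) of the 9 genes in each library by library set, in gated microglia (left) and in all other named nuclei (right). P2ry12 separated the sets in both, at 638 to 948 against 425 to 538 CPM in microglia.

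Ligands of the receptors were read in the cells that could present them. Cx3cl1, fractalkine, was highest in striatal projection neurons (148 CPM ± 32.7; SD, n = 8) and excitatory neurons (105 ± 18.3 CPM). Csf1 was highest in oligodendrocytes (105 ± 21.8 CPM), and Il34, the other ligand of Csf1r, in mural cells (609 ± 105 CPM) and fibroblasts (302 ± 78.0 CPM). The selectin genes Selp and Sele, partners of Selplg, had at most 6 UMIs each in any class. No ligand passed in edgeR in any of the 17 pairs of ligand and class tested, for any of the 4 contrasts, in classes where 0% of genes were called. Il34 in fibroblasts alone had an unadjusted p under 0.05, in 2 of the contrasts.

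The smallest unadjusted p among them was for Il34 in fibroblasts. It was at 240.5 and 217 CPM in control, 368 and 394 CPM in BCAS, 218 and 245 CPM in TBI, and 384 and 346 CPM in BCAS+TBI. All 4 libraries with BCAS surgery were above all 4 without it. The share of all fibroblast genes in that order is not given here. The log2 fold change for BCAS averaged over TBI was 0.69 (0.30 to 1.08), with an adjusted p of 0.999 in edgeR and of 0.393 with the library set as a further term.

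Profiles over the 12 classes were compared with the mean of the 9. Among genes that are neither members nor gate genes, Naip6, Tlr13, Tifab, Cd86, Gm46224 and Bin2 were most like it. Each had a Pearson r of 0.995 to 0.996 over 12 class means. Only genes with 50 or more UMIs in gated microglia were compared, so the filter works through the class where the 9 are highest. The class means also come from the same 8 libraries, so this likeness is a description only. Among 6942 genes compared, Sall1 (r = 0.818) and Cx3cr1 (r = 0.801) stood lowest of the 9, each of which is itself part of the mean.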

How the data were processed

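Nuclei of 8 Chromium 3′ libraries were analysed from the deposited matrices of UMI counts, 1 per library, whose headers name Cell Ranger 7.0.0 as the authors' counting software. The submitters' processing notes list GRCm38/mm10 and Seurat. Annotation release, introns and strand in counting are not given in the sources used here. The members and gene lists were chosen with earlier results of these data known.

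Barcodes with under 500 UMIs, under 300 genes or over 5% mitochondrial UMIs (4922 of 53390) and the 6% of highest doublet score in each library (2903) were left out. Counts without the 9 genes were clustered with scanpy 1.11.5 into 40 clusters, named by markers. Microglia had 3 or more UMIs of 15 gate genes, from 2 or more genes and at 0.2% or more of their UMIs. Counts were summed per library and class and fitted across all genes that passed filterByExpr with edgeR 4.0.16 (quasi-likelihood, TMM, 4 group means, Benjamini-Hochberg adjustment, threshold 0.05). DESeq2 1.42.0 was an alternative. Values within library sets are on log2(CPM + 10). In the fit of 4 group means p-values measure the spread between libraries of a group, which the labels call biological replicates. In the comparison with other nuclei, where the library was a block, they measure the spread of within-library differences over the 8 libraries. With the library set as a further term they measure the spread left after groups and sets. Genes were named if members, if overlapping one, or as the 6 most like the members by Pearson r. Other genes came from lists and are given by size of change. Scripts were tested on simulated data. Same-numbered replicates did not deviate together (r -0.46 to 0.29 over 12 pairs, 6 above 0), so numbers were not taken to pair libraries. Libraries of the same set did (r 0.20 to 0.46, 12 of 12 above 0), and the set entered as an alternative term. With 2 libraries per group the deviations mirror each other, so each r occurs in 2 of the 12 pairs. The r values of the 2 checks are the same up to sign, so the checks are not independent. The library sets were split at the largest gap in total UMIs. Alternatives covered the gate, filter, normalization, thinning, doublets, blocks and leaving out each library. The gated nuclei within the cluster, and the set block with 1 library left out, were not planned in advance.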

Additional observations from a re-analysis of the deposited data

Results flagged for a closer look

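In 36 sets of 4 libraries (each gene, with and without each surgery) the highest or lowest library was compared with the others, and 6 stood apart by more than Dixon's 95% critical value for 4 samples. For 4 independent draws from 1 normal population, chance alone does this for about 1 set in 20. The 36 sets share libraries and mix groups and library sets, so the 6 cannot be set against that rate. Among libraries without TBI, control 1 was high for Cx3cr1, at 1233 CPM against 831 to 869.7 CPM, and for Csf1r, at 1082 CPM against 723 to 769 CPM. Among libraries with BCAS surgery, BCAS+TBI 2 was high for Csf1r, at 968 CPM against 723 to 759.96 CPM, and for Gpr34, at 776 CPM against 255 to 332 CPM. Among libraries with TBI, BCAS+TBI 1 was low for Siglech, at 468 CPM against 636 to 654 CPM. Among libraries without BCAS surgery, control 2 was low for Selplg, at 325 CPM against 548 to 589 CPM. Control 1 and BCAS+TBI 2 belong to set 1, and control 2 and BCAS+TBI 1 to set 2.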

How the results depend on the processing

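All 9 genes were called higher in microglia than in other nuclei under each of 15 alternatives, at 13.4-fold or more (P2ry12, looser gate) and up to 490.1-fold (Siglech). No member was called for a surgery under any of 34 alternatives (smallest adjusted p 0.373), and 202 of 1197 fitted values changed sign. In the order TBI, BCAS, interaction and BCAS+TBI against TBI, where edgeR called 0 genes each, dropping the filter on low counts called 3, 8, 6 and 8. DESeq2 called 3 for BCAS, and the library set as a block called 6 for BCAS. With a replicate block (the replicate number as a further term) 0 were called in each (unadjusted p under 0.05 in 235, 208, 170 and 220). Leaving out 1 library gave 0 or 1 call for BCAS (1 without TBI 2 or without BCAS+TBI 2). With the library set as a block, leaving out 1 library gave 0 to 17, 1 to 82, 0 to 17 and 0 to 23 calls. For BCAS these were 4, 29, 5, 82, 9, 19, 1 and 10 without control 1, control 2, BCAS 1, BCAS 2, TBI 1, TBI 2, BCAS+TBI 1 and BCAS+TBI 2. For TBI there were 1, 1, 17 and 2 calls without control 2, BCAS 1, BCAS 2 and TBI 1. For the interaction there were 3, 2, 17, 2 and 3 without control 1, control 2, BCAS 1, BCAS 2 and TBI 2, and for BCAS+TBI against TBI 2, 2, 23, 6, 5 and 5 without control 1, control 2, BCAS 1, BCAS 2, TBI 1 and TBI 2. Within the microglia cluster with the set block the counts were 1, 1, 2 and 0. The mean share of microglia with a UMI, over members and libraries, was 35.9% at 800 UMIs, 52.6% without thinning, 26.1% at 500 UMIs, 28.0% with the looser gate and 42.2% within the cluster. The cause was not tested. With 72 to 139 microglia per library and 2 libraries per group, the 95% intervals of the members for TBI reached down to -0.54 and up to 1.32 on the log2 scale.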
